A study of Mus musculus with 6 samples.

Results

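The genes described here are *Card9*, 4 C-type lectin receptors that signal through the adapter it encodes, and 5 genes for the enzymes and partners between and beside them. They were listed by name, with earlier results of these data known, around *Card9*, which the study had singled out on these libraries. They number 10 of the 56748 genes in the deposited count table: the receptor genes *Clec7a*, *Clec4n*, *Clec4d* and *Clec4e*, the kinase genes *Syk* and *Prkcd*, the phospholipase gene *Plcg2*, *Card9* itself, and *Bcl10* and *Malt1*. C-type lectin receptors of myeloid cells bind sugars and glycolipids of fungi and mycobacteria, and some ligands from dying cells, and recruit the tyrosine kinase SYK through tyrosine motifs in their own tails or in the adapter chain FcRγ. SYK activates phospholipase Cγ2, its product diacylglycerol activates protein kinase Cδ, and this kinase phosphorylates CARD9, which then assembles BCL10 and MALT1 filaments that switch on NF-κB. CARD9 is best known from macrophages, dendritic cells and neutrophils, and also takes part in signaling downstream of the intracellular receptor NOD2.

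RNA had been sequenced from 6 cultures of primary osteocytes, the matrix-embedded cells of bone, isolated from the long bones of mice and cultured for 7 days. The WT group held 3 libraries. The other group held 3 libraries labelled cKO, which per the study's methods came from *Gsdmd* fl/fl; DMP1-Cre mice, in which Cre is driven by the *Dmp1* promoter and removes *Gsdmd*, the gene for the pore-forming protein of pyroptosis, where that promoter is active. Both groups received lipopolysaccharide (LPS) at 10 ng/mL for 3 h and then aluminum hydroxide at 20 µg/mL for 3 h, so each value compares genotypes under stimulation, and no unstimulated library was analysed here. The methods gave C57BL/6 mice of 7 weeks as the source of primary osteocytes. The sources used here do not say whether the libraries of a genotype came from separate mice, and p-values measure the spread between these libraries.

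The libraries held 39566835 to 49734046 counts, and 17146 genes passed the filter on low counts and were tested. The targeted gene did not follow the labels. *Gsdmd* counts were 609, 699 and 549 in WT and 885, 937 and 1045 in the libraries labelled cKO, and the gene rose by a log2 fold change of 0.69 (SE 0.083, adjusted p = 2.27e-06 edgeR quasi-likelihood test, Benjamini-Hochberg adjusted). Counts outside a deleted exon would not be lost, and the counts per exon were not analysed here. The groups also differed in sex-linked transcripts. WT had 0 to 4 counts of *Xist* and 4033 to 5455 of the Y-linked *Ddx3y*, against 44817 to 51216 and 0 in the libraries labelled cKO. Sex of the cells and genotype therefore cannot be told apart here, although the study's methods describe the mice of all its experiments as matched for age and sex. Of 8 osteocyte markers, 2 passed the filter (*Irx5* and *Pdpn*), *Sost* and *Dkk1* were at 0 in every library, and *Dmp1* had at most 6 counts. The summed level of the macrophage markers was 1233 to 1384 CPM (counts per 1000000, scaled by the TMM method) in WT against 6665 to 6978 CPM with the label cKO, and all 14 that were tested, of 16 on the list, rose. Of the B and T cell markers none was tested. Of 10 neutrophil markers 2 were tested and both rose, *S100a8* by 1.61 and *Camp* by 0.49, while *S100a9* and *Retnlg* were at 0, and the summed level was 6.37 CPM in WT and 10.5 CPM with the label cKO. Of 7 dendritic cell markers 2 were tested and 1 rose, *Itgax*, by 2.86, while *Flt3* and *Siglech* were at 0, and the summed level was 3.34 and 8.18 CPM. Mast cell and basophil markers, of which only *Mcpt8* was tested, summed to 20.1 CPM in WT and 4.28 CPM with the label cKO. In the same order, osteoblast and stromal markers summed to 10345 and 7966 CPM, most of it *Col1a1* and *Col1a2*. Of these markers 9 were tested, and they moved both ways, from -3.12 for *Postn* to 2.01 for *Ibsp*. At an adjusted p below 0.05, 3 of them rose and 4 fell, beside 20.1% and 19.2% of all tested genes. Osteocyte markers summed to 239.7 and 199.8 CPM, of which *Pdpn* alone held 233.8 and 193.0 CPM. Osteoclast markers summed to 146 and 167 CPM and endothelial markers to 6.66 and 6.50 CPM, with genes moving both ways in each list. The part of macrophage number, or of these other cell types, in the results below was not tested, and in bulk RNA more cells of a type and more RNA per cell cannot be told apart.

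The windows before the transcription starts of *Card9* and of 3 of the receptor genes are shown, and all of them hold a motif named below. *Spi1*, the gene for the myeloid ETS factor PU.1, was among the macrophage markers that rose. A part of PU.1 in the differences was not tested. The sequences are from RefSeq on build GRCm38.p6, which is not the build of the count table (GRCm39), and each covers the 250 bases before the start, read on the gene's own strand. The windows are chr2:26360910-26361159 (minus strand) for *Card9*, chr6:129472780-129473029 (minus) for *Clec7a*, chr6:123261857-123262106 (plus) for *Clec4d* and chr6:123289872-123290121 (minus) for *Clec4e*. Capitals mark GAGGAA or AGGAAG, forms of the purine-rich core that ETS factors bind, on either strand. Where the pair of motifs overlap, the capitals run together.
Card9: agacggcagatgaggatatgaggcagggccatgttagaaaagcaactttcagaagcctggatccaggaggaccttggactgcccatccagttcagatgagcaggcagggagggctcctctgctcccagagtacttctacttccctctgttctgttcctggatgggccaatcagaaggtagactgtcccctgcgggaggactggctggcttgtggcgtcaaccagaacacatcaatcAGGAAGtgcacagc
Clec7a: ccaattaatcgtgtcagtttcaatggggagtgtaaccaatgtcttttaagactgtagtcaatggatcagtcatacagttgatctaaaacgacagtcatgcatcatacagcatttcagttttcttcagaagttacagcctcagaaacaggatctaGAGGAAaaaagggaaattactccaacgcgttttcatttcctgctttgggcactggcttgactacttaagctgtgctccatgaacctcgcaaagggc
Clec4d: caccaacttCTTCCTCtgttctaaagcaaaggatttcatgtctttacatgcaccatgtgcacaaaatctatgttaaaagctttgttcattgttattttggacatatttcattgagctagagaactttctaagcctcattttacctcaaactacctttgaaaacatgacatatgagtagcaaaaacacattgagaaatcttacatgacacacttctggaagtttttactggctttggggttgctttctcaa
Clec4e: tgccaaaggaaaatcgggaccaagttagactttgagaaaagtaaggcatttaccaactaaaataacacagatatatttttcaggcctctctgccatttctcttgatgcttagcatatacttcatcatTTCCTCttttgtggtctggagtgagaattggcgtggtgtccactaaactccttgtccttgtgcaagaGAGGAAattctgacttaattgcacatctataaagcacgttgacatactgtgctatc

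The table held promoters for 8 of the 10 genes, 11 promoters in all, and GAGGAA or AGGAAG on either strand lay in at least 1 promoter of *Card9*, *Clec7a*, *Clec4d*, *Clec4e*, *Syk* and *Bcl10* and in none of *Prkcd* and *Plcg2*. In *Card9* the match was AGGAAG at 14 to 9 bases before the start. In *Clec7a* it was GAGGAA at 96 to 91 bases, and in *Clec4e* GAGGAA occurred at 123 to 118 bases on the opposite strand and at 56 to 51 bases on the gene's strand. In *Clec4d* both motifs overlapped on the opposite strand between 241 and 235 bases before the start. Of the *Syk* windows, 1 held neither motif. Such short motifs are common, since GAGGAA was in 23.3% of the 32851 RefSeq promoter windows of this length, AGGAAG in 29.5% and either in 39.2%. These shares are per window, whereas the tally above is per gene, and some genes have more than 1 window. The κB consensus, the site of NF-κB, was in 7.3% of all windows and, of these genes, in that of *Bcl10* alone. *Bcl10*, whose RNA was lower in the libraries labelled cKO, also held AGGAAG, at 9 to 4 bases before its start. These matches describe letters and are not evidence of binding.

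The receptors, *Syk*, *Plcg2* and *Card9* were all several-fold higher in the libraries labelled cKO, while *Prkcd*, *Malt1* and *Bcl10* differed by less than 2-fold. All 10 genes passed the filter. To be called, a gene needed an adjusted p below 0.05 (edgeR quasi-likelihood test, Benjamini-Hochberg adjusted over all tested genes) and a log2 fold change of 1 or more in size. By that rule 7 of the 10 were called higher and 0 lower, beside 6.56% of all tested genes called higher and 4.64% called lower. By the adjusted p alone 9 rose and 1 fell, beside 20.1% and 19.2% of all tested genes. For each of the 10 genes the WT libraries and those labelled cKO did not overlap, with 9 genes higher and 1 lower, beside 25.3% and 23.9% of all tested genes. The median log2 fold change was 1.95 over the 10 genes and 0.01 over all tested genes. The study had singled out *Card9* on these same libraries, so *Card9* is one of the 7 by selection and its own difference is given as a description without a test.

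**Figure D1:**
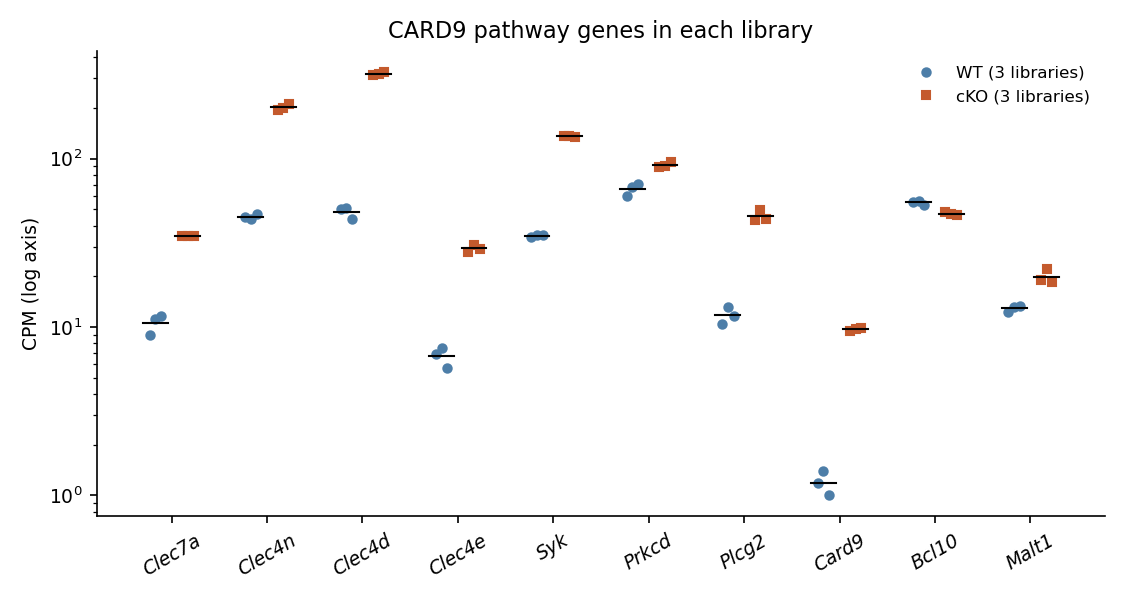
CPM of each of the 10 genes (log axis) in each library, with circles for the 3 WT libraries, squares for the 3 libraries labelled cKO and a bar at each mean. The groups do not overlap for any gene, *Bcl10* alone is lower in the libraries labelled cKO, and the widest gap is that of *Card9*, from 1.19 to 9.69 CPM.

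Among the receptors, *Clec7a* encodes Dectin-1, the β-glucan receptor, which carries its own tyrosine motif. Its counts were 402, 553 and 454 in WT and 1457, 1383 and 1572 in the libraries labelled cKO, and its mean level went from 10.6 ± 1.46 (SD, n = 3) to 34.7 ± 0.0952 CPM (SD, n = 3). All 3 libraries labelled cKO were above all WT libraries, and the log2 fold change was 1.71 (SE 0.092, adjusted p = 6.31e-11), a 3.28-fold difference and the smallest among the receptors. *Clec4n* encodes Dectin-2, which binds mannans and pairs with FcRγ. It had 2013, 2177 and 1821 counts in WT and 8135, 7995 and 9625 in the libraries labelled cKO, a rise of 2.16 (SE 0.050, adjusted p = 8.84e-16) on the log2 scale with no overlap.

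*Clec4d* encodes MCL, the partner receptor of Mincle in binding mycobacterial cord factor. It was the most abundant of the 10 genes in the libraries labelled cKO, with 2265, 2515 and 1703 counts in WT and 13277, 12565 and 14863 in the libraries labelled cKO. Its mean level went from 48.3 ± 3.83 to 319.6 ± 6.61 CPM (SD, n = 3 each), with every library labelled cKO far above every WT library, and it rose by 2.72 (SE 0.054, adjusted p = 1.51e-16), or 6.61-fold. *Clec4e* encodes Mincle, the receptor for cord factor and for a nuclear protein released by dying cells. It had 311, 372 and 222 counts in WT and 1179, 1215 and 1326 in the libraries labelled cKO. The groups were again apart, and *Clec4e* rose by 2.12 (SE 0.10, adjusted p = 1.03e-11), or 4.34-fold.

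Of the enzymes between receptor and adapter, *Syk*, the kinase gene shared by these receptors, had 1537, 1755 and 1361 counts in WT and 5756, 5430 and 6102 in the libraries labelled cKO. Its level was tight within each group, 34.9 ± 0.634 and 135.9 ± 1.36 CPM (SD, n = 3 each), and it rose by 1.96 (SE 0.048, adjusted p = 1.42e-15), or 3.90-fold. *Plcg2*, the hematopoietic phospholipase Cγ gene, had 471, 654 and 454 counts in WT and 1826, 1960 and 1979 in the libraries labelled cKO, and rose by 1.94 (SE 0.087, adjusted p = 5.05e-12), or 3.85-fold. The log2 fold changes of *Syk* and *Plcg2* differed by less than their standard errors. *Prkcd*, for protein kinase Cδ, stood apart from both. It had 2701, 3355 and 2728 counts in WT and 3730, 3597 and 4311 in the libraries labelled cKO, and although the groups did not overlap in CPM it rose by only 0.47 (SE 0.058, adjusted p = 3.58e-06), or 1.39-fold, and was not called.

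*Card9* was the least abundant of the 10 genes in WT, with 53, 69 and 39 counts or 1.18, 1.39 and 1.00 CPM. The libraries labelled cKO held 398, 387 and 449 counts or 9.46, 9.73 and 9.88 CPM, with no overlap. The fitted log2 fold change was 3.01 (SE 0.17), an 8.07-fold difference and the largest of the 10. Among the 1124 genes called higher, 203 had a larger log2 fold change than *Card9*, and the median of those 1124 genes was 1.95. In the same list 293 genes had a larger log2 fold change than *Clec4d* and 666 a larger one than *Clec7a*. The study described *Card9* as its most significantly upregulated gene. In the fit used here, 331 of the 1124 genes had a smaller p than *Card9* (edgeR quasi-likelihood test).

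The partners of CARD9 differed far less than *Card9* itself. *Bcl10*, for the protein that CARD9 nucleates into filaments, had 2492, 2797 and 2064 counts in WT and 2017, 1853 and 2100 in the libraries labelled cKO. In CPM its groups did not overlap, at 55.0 ± 1.63 and 46.9 ± 0.897 (SD, n = 3 each), and it fell by 0.23 (SE 0.052, adjusted p = 0.00176) on the log2 scale, below the fold needed for a call. *Malt1*, for the paracaspase bound by BCL10, had 554, 653 and 518 counts in WT and 799, 879 and 843 in the libraries labelled cKO. It rose by 0.62 (SE 0.093, adjusted p = 3.21e-05), or 1.54-fold, and was not called. These p-values and those of the receptors and enzymes above were given by the edgeR quasi-likelihood test, Benjamini-Hochberg adjusted over all tested genes.

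**Figure D2:**
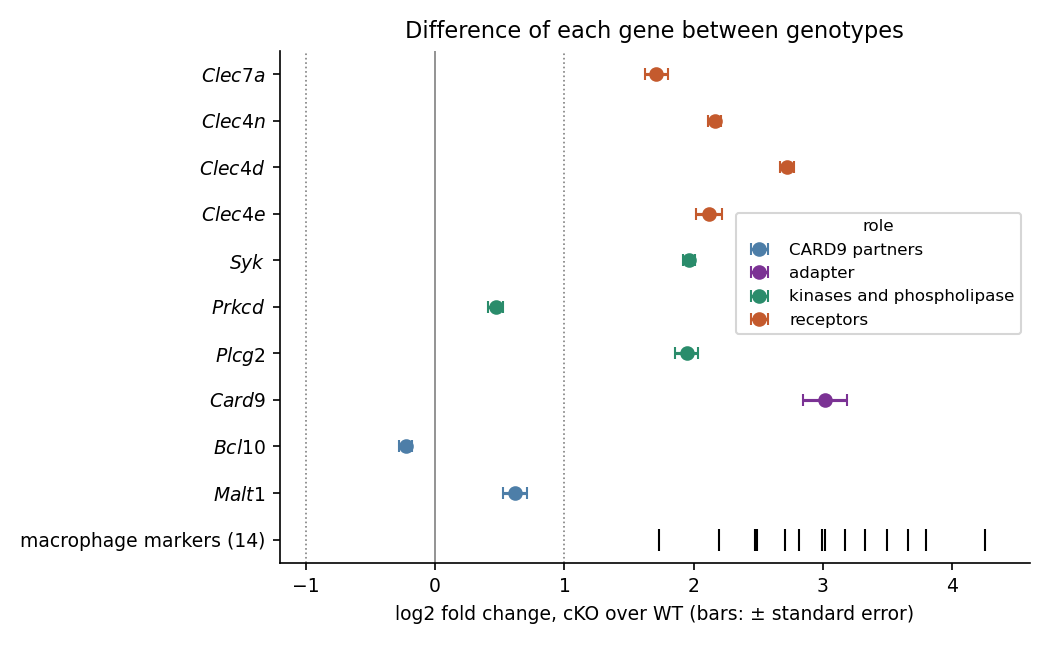
Log2 fold change (libraries labelled cKO over WT) of each of the 10 genes, as points with bars of 1 standard error, coloured by role, above the log2 fold changes of the 14 tested macrophage markers (ticks). Dotted lines mark the size of 1 needed for a call; *Card9* lies at 3.01 and the receptors at 1.71 to 2.72, within the 1.73 to 4.25 of the markers or, for *Clec7a*, just below it, while *Prkcd*, *Malt1* and *Bcl10* lie between the dotted lines.

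Levels of different genes were compared as CPM per kb of the deposited gene length. In WT the order was led by *Clec4n* and *Clec4d*, at 31.8 ± 1.11 and 30.2 ± 2.40 CPM per kb (SD, n = 3 each), whose ranges of mean ± SD overlapped. *Bcl10* and *Prkcd* came next at 12.04 ± 0.357 and 11.9 ± 0.961 and did not differ beyond their spread either. *Clec7a* (4.01 ± 0.555) and *Syk* (3.72 ± 0.0677) overlapped as well, and *Plcg2* (2.74 ± 0.316), *Clec4e* (1.35 ± 0.182), *Malt1* (0.717 ± 0.0306) and *Card9* (0.519 ± 0.0843) followed without overlap. In WT, then, *Card9* was the scarcest of these 10 transcripts per kb.

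In the libraries labelled cKO the order was different. *Clec4d* led with 199.9 ± 4.13 CPM per kb and *Clec4n* followed with 142.3 ± 6.56, now apart. The levels of *Prkcd* (16.5 ± 0.581), *Syk* (14.5 ± 0.145), *Clec7a* (13.1 ± 0.0361) and *Plcg2* (10.6 ± 0.781) lay closer together, and *Plcg2* overlapped with *Bcl10* (10.3 ± 0.196). *Clec4e* (5.89 ± 0.256) and *Card9* (4.23 ± 0.0941) came below them, and *Malt1* (1.10 ± 0.107) was the lowest. The deposited length of *Malt1*, 18040 bases, is the longest of the set, against 2293 for *Card9* and 1420 for *Clec4n*, so the per-kb level of *Malt1* rests on that length.

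To compare *Card9* with each receptor and partner inside a library, the log2 ratio of its counts to theirs was formed, which does not depend on library scaling. All 9 ratios were higher in every library labelled cKO than in every WT library. The exact two-sided permutation p was 0.1 for each, the smallest that 3 against 3 libraries allow, and 0.1 after Benjamini-Hochberg adjustment over the 9 ratios. The ratio to *Clec4d* moved least, from -5.34 ± 0.139 to -5.04 ± 0.0202 (SD, n = 3 each), a difference of 0.30 (SE 0.081). Against the other receptors the difference was 0.86 (SE 0.16) for *Clec4n*, 0.89 (SE 0.045) for *Clec4e* and 1.31 (SE 0.19) for *Clec7a*. Against *Syk* and *Plcg2* it was 1.06 (SE 0.13) and 1.08 (SE 0.13), about the same for both. The widest shifts were against the genes that were not called, 2.41 (SE 0.16) for *Malt1*, 2.55 (SE 0.16) for *Prkcd* and 3.25 (SE 0.11) for *Bcl10*, whose ratio went from -5.53 ± 0.189 to -2.27 ± 0.0594 (SD, n = 3 each). Since the study had picked *Card9* on these libraries, the ratios are descriptions.

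**Figure D3:**
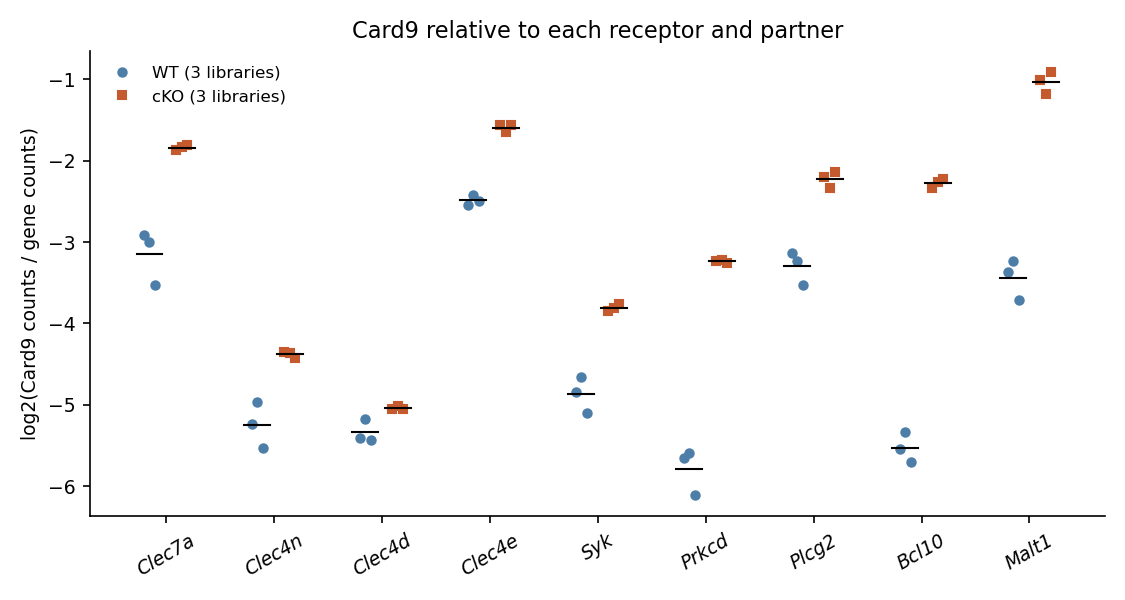
Log2 ratio of *Card9* counts to the counts of each other gene, with circles for the 3 WT libraries, squares for the 3 libraries labelled cKO and a bar at each mean. The squares lie above the circles for all 9 genes, closest for *Clec4d* (difference 0.30) and widest for *Bcl10* (3.25).

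On GRCm39, *Card9* lies at chr2:26242188-26250930 on the minus strand. Its flanking genes did not move with it, at -0.08 for *Dnlz*, 66 bases away, and -0.03 for *Snapc4*, 1847 bases away on the other side (log2 fold changes, adjusted p = 0.442 and 0.858 edgeR quasi-likelihood test, Benjamini-Hochberg adjusted). The long noncoding RNA gene *Gm13562* overlaps *Card9* on the opposite strand and had 27, 32 and 13 counts in WT and 23, 27 and 33 in the libraries labelled cKO. The kit marked strand, but the strand setting of the counting was not given in the sources used here, so reads shared by this pair cannot be assigned with certainty.

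The receptor genes sit in clusters of lectin genes on chromosome 6. *Clec4n* (chr6:123206802-123223980, plus strand), *Clec4d* (chr6:123239070-123252224, plus) and *Clec4e* (chr6:123258748-123266829, minus) follow each other at 15090 and 6524 bases, and all rose. The next tested gene before them, *Clec4a2*, which encodes an inhibitory lectin receptor, lies 85844 bases from *Clec4n* and rose by 3.43, while *Clec4b2* between them had 0 counts in all libraries. Beyond *Clec4e* the next tested gene, *Pex5*, lies 1106946 bases away and had a log2 fold change of -0.02 (adjusted p = 0.835). *Clec7a* (chr6:129438554-129449742, minus strand) lies in another cluster with neighbours that moved in opposite directions. The nearest tested gene on one side, *Clec12a*, for an inhibitory receptor of myeloid cells, rose by 4.33. *Olr1*, for the oxidized LDL receptor LOX-1, lies 12465 bases from *Clec7a* on the other side and had 691, 653 and 539 counts in WT and 20, 4 and 14 in the libraries labelled cKO, a fall of 5.55 on the log2 scale. The lectin genes between *Clec12a* and *Clec7a* had 0 counts (*Clec12b* and *Clec1b*) or at most 20 (*Clec9a* and *Clec1a*) in every library.

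The other genes grouped with C-type lectin receptors, not all of which encode receptors, gave a mixed picture. Of 34 genes on a list that leaves out the 4 receptors above, 16 were tested. Of these, 8 were called higher and 2 lower, beside 6.56% and 4.64% of all tested genes. By the adjusted p alone 10 rose and 5 fell, beside 20.1% and 19.2%. The median log2 fold change of the list was 1.78. The called genes with the widest differences were *Olr1*, *Clec3b* (the secreted lectin tetranectin, 0.0589 to 2.51 CPM, 5.33), *Clec4a1* (0.266 to 6.16 CPM, 4.50) and *Clec12a* (0.306 to 6.31 CPM, 4.33). *Clec4a3*, *Cd207*, *Clec4a2*, *Mrc1*, the macrophage mannose receptor, and *Clec5a*, a SYK-coupled receptor that pairs with DAP12, were also called higher, and *Clec14a*, a gene of endothelial cells, was called lower. The *Clec4a* genes are close paralogs, and how reads shared among them were split is uncertain. Averaged over all libraries, the most abundant genes of the list not called were *Mrc2*, the collagen receptor of mesenchymal cells, from 899.0 to 501.9 CPM (-0.84), *Colec12* from 352.3 to 271.7 CPM (-0.37) and *Clec16a* from 34.5 to 31.7 CPM (-0.12). *Clec11a*, next in abundance, rose from 24.1 to 36.5 CPM (0.60) by the adjusted p alone. *Mrc2* and *Colec12* fell by the adjusted p alone and *Clec16a* did not pass it (adjusted p = 0.227 edgeR quasi-likelihood test, Benjamini-Hochberg adjusted).

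The adapters and kinases next to the receptors largely rose. All 19 on the list were tested, and 13 were called higher and 0 lower, beside 6.56% and 4.64% of all tested genes. By the adjusted p alone 14 rose and 4 fell, beside 20.1% and 19.2%. The median log2 fold change of the list was 2.27. The widest differences were in *Fgr*, a SRC-family kinase of myeloid cells (0.556 to 7.38 CPM, 3.73), *Blnk* (1.67 to 14.3 CPM, 3.12), *Tyrobp*, which encodes DAP12 (10.4 to 84.4 CPM, 3.01), and *Vav1* (5.31 to 38.1 CPM, 2.85). *Fcer1g*, the FcRγ chain that Dectin-2, MCL and Mincle use, is given for its role, chosen after its values were seen, and rose by 2.71, from 13.9 ± 1.17 to 91.1 ± 4.53 CPM (SD, n = 3 each). It had 543 to 749 counts in WT libraries, and 3722 to 4022 in those labelled cKO. The genes of the list that were not called lay on both sides of 0. *Pik3cb* rose by 0.38 (28.5 to 37.0 CPM), *Pik3r1* was at 227.2 and 224.9 CPM (-0.02), *Src* and *Fyn* fell by 0.33 and 0.25, and *Vav2* and *Plcg1*, relatives of *Vav1* and *Plcg2*, fell by 0.41 and 0.17, none of them by enough to be called.

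Of 9 relatives of CARD9 and of protein kinase Cδ 7 were tested. Of these, 3 were called higher and 0 lower, beside 6.56% and 4.64% of all tested genes. By the adjusted p alone 3 rose and 2 fell, beside 20.1% and 19.2%. The median log2 fold change of the list was -0.25. *Prkcb* rose by 2.49 (3.18 to 17.7 CPM), *Prkch* by 2.34 (3.25 to 16.5 CPM) and *Card14* by 1.52 (0.823 to 2.37 CPM). *Card10*, for the relative used outside blood cells, had 131, 168 and 95 counts in WT and 130, 80 and 102 in the libraries labelled cKO, with overlap (-0.25, adjusted p = 0.423 edgeR quasi-likelihood test, Benjamini-Hochberg adjusted). The genes that fell were *Prkcz*, from 3.12 to 1.65 CPM (-0.92), and *Prkca*, from 107.8 to 87.2 CPM (-0.31).

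Downstream of CARD9, in the list from BCL10-MALT1 to NF-κB and MAPK kinases, all 24 genes were tested, 0 were called higher and 1 lower, and by the adjusted p alone 6 rose and 7 fell, with a median log2 fold change of -0.05. Over all tested genes 6.56% were called higher and 4.64% lower, and by the adjusted p alone 20.1% rose and 19.2% fell. Among those that rose were *Ikbkb*, *Ikbkg*, *Rel*, *Relb* and *Mapk3*, by 0.22 to 0.51. Of those that fell, *Map3k7*, *Ube2n*, *Traf6*, *Tab3*, *Mapk8* and *Mapk9* did so by 0.15 to 0.27, and the called gene was *Rasgrf1*, for an exchange factor that CARD9 binds, at 33, 40 and 28 counts in WT and 0, 2 and 9 in the libraries labelled cKO. *Rasgrf1* fell by 3.10. Among the most abundant genes not called were *Tab2* at 157.6 and 149.3 CPM and *Mapk3* at 128.8 and 150.3 CPM. These are RNA levels, and the activity of these kinases and factors was not measured in these libraries.

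In the calcineurin and NFAT branch, which phospholipase Cγ2 feeds through calcium, 1 gene of 13 was called, *Nfatc2*, which rose by 2.80 (1.63 to 11.3 CPM). Over all tested genes 6.56% were called higher and 4.64% lower. By the adjusted p alone 4 rose and 1 fell, beside 20.1% and 19.2% of all tested genes, and the median was 0.07. *Ppp3ca*, the most abundant, rose from 294.9 to 444.7 CPM (0.59) without being called. Among regulators of CARD9 and genes of the NOD2 branch, all 19 were tested. Of these, 3 were called higher and 0 lower, beside 6.56% and 4.64% of all tested genes. By the adjusted p alone 6 rose and 5 fell, beside 20.1% and 19.2%, and the median of the list was 0.07. The called genes were *Ptpn6*, for the phosphatase SHP-1 (3.34 to 31.0 CPM, 3.23), *Inpp5d*, for the phosphatase SHIP-1 (10.4 to 84.9 CPM, 3.03), and *Nod2* (1.44 to 3.97 CPM, 1.46). *Ripk2*, for the kinase with which NOD2 signals, went the other way from *Nod2* and fell by 0.38, and *Nod1* fell by 0.55. Averaged over all libraries, the most abundant genes of the list were *Ptpn11*, *Cbl* and *N4bp1*, and they were not called.

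Of 21 cytokines and other known targets of these receptors, 15 were tested. Of these, 6 were called higher and 3 lower, beside 6.56% and 4.64% of all tested genes. By the adjusted p alone 9 rose and 4 fell, beside 20.1% and 19.2%, and the median of the list was 0.72. *Il1b*, the gene of the inflammasome cytokine, had 8, 0 and 26 counts in WT and 43, 53 and 109 in the libraries labelled cKO and rose by 2.55 (SE 0.69, adjusted p = 0.00665 edgeR quasi-likelihood test, Benjamini-Hochberg adjusted). *Tnf* rose by 2.47 (0.917 to 5.07 CPM) and *Nlrp3*, the inflammasome sensor, by 2.09 (2.24 to 9.53 CPM). *Ccl4*, *Cxcl2* and *Il6* were also called higher. *Csf2*, for the growth factor GM-CSF, went the other way, with 31, 54 and 20 counts in WT and 2, 6 and 0 in the libraries labelled cKO, a fall of 3.53. *Egr2* and *Egr3*, early targets of NFAT, were called lower as well, *Egr3* just past the limit at -1.01. In place of 3 genes of this list, 2 were called lower with library size alone as the scaling, with at least 10 counts in every library, or without WT replicate 2, WT replicate 3, cKO replicate 1 or cKO replicate 2. The most abundant genes not called were *Ptgs2*, from 1350 to 871.1 CPM (-0.63), *Cxcl1*, from 400.8 to 658.4 CPM (0.72), and *Ccl2*, at 263.4 and 280.4 CPM (0.09).

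**Figure D4:**
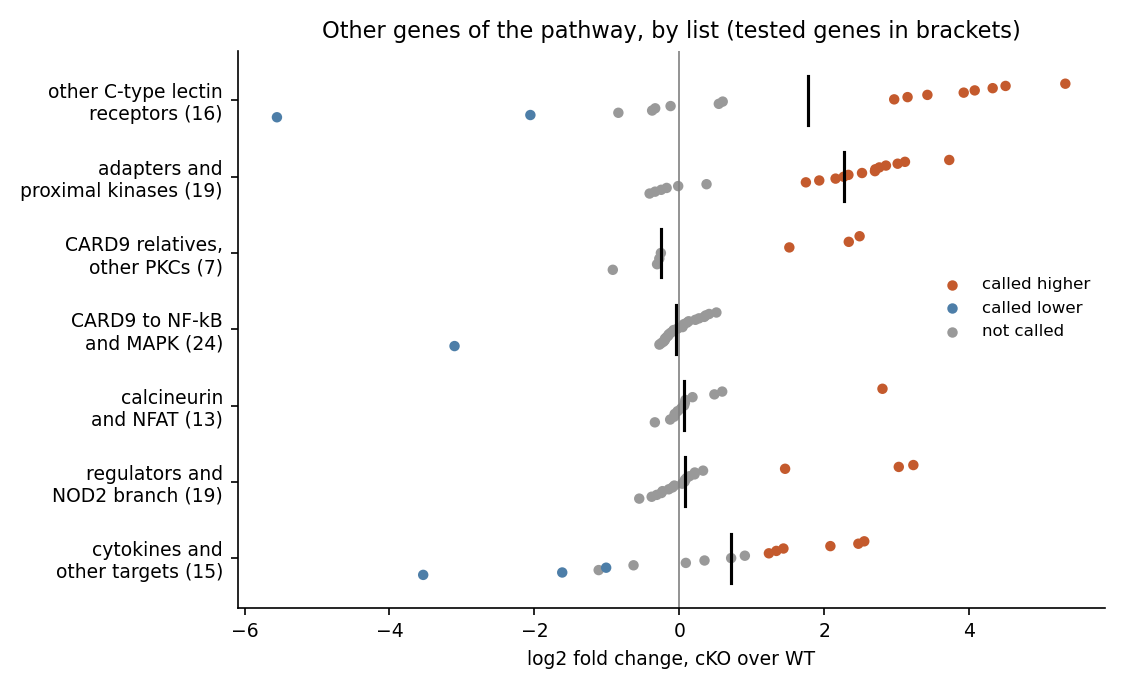
Log2 fold change (libraries labelled cKO over WT) of every tested gene in 7 lists of other pathway genes, coloured by whether the gene was called, with a black bar at the median of each list. The medians are 1.78 for other lectin receptors and 2.27 for adapters and proximal kinases, and -0.05 for the genes from CARD9 to NF-κB and MAPK.

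The protein-coding genes whose profile was most like that of *Card9* were found by the Euclidean distance between gene-centred log2 CPM over the 6 libraries. They were *Aim2*, a cytosolic DNA sensor, at a distance of 0.176, *Scara5*, a scavenger receptor, at 0.190, *Tm6sf1* at 0.241, *Clec5a* at 0.268 and *Cd180*, a Toll-like receptor homologue, at 0.280. Their log2 fold changes were 2.92 to 3.19, so that a like size of difference between the genotypes placed them there. *Scara5* was the most abundant, at 13.1 ± 2.35 in WT and 99.1 ± 2.94 CPM in the libraries labelled cKO (SD, n = 3 each).

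The macrophage markers moved with the receptors and *Card9*, and their log2 fold changes ran from 1.73 for *Cd14* to 4.25 for *Fcgr1*, with a median of 3.01. Their summed CPM was 5.20-fold higher in the libraries labelled cKO, and without *Lyz2*, which held most of the sum, 7.03-fold higher. The general leukocyte markers *Ptprc*, *Coro1a*, *Laptm5* and *Cd53* rose by 1.74 to 3.87. A ratio to the marker sum, chosen after the data had been seen, was therefore formed in each library. Per 1000 marker counts, *Card9* had 0.955, 1.04 and 0.726 counts in WT and 1.42, 1.40 and 1.42 in the libraries labelled cKO, a log2 ratio of the means of 0.64 without overlap. Without *Lyz2* in the sum the values were 3.78, 4.14 and 2.84 against 4.16, 4.05 and 4.18, the groups overlapped and the log2 ratio was 0.20.

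*Clec4d* shared with *Card9* where the groups overlapped on this scale. With *Lyz2* in the sum its log2 ratio was 0.34 without overlap. Without *Lyz2* the groups overlapped and its log2 ratio was -0.09, on the other side of 0 from the 0.20 of *Card9*. The other genes were lower per marker count in the libraries labelled cKO. A gene that rose by less than the marker sum is lower on this scale, which does not give a level per macrophage. With and without *Lyz2* the log2 ratios were -0.66 and -1.10 for *Clec7a*, -0.22 and -0.65 for *Clec4n*, -0.26 and -0.70 for *Clec4e*, -0.42 and -0.85 for *Syk* and -0.43 and -0.87 for *Plcg2*. For these genes the groups did not overlap, except for *Clec4e* with *Lyz2* in the sum. *Malt1*, *Prkcd* and *Bcl10* lay lowest, at -1.76, -1.91 and -2.61 with *Lyz2* in the sum. On this scale *Card9* and *Clec4d* were higher or overlapped, and which of these held depended on whether *Lyz2* was in the sum.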

How the data were processed

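The authors trimmed paired-end reads of 150 bases, aligned them to GRCm39 with HISAT2 (2.0.5 per the labels) and counted them on genes with featureCounts (1.55.0-p3 per the labels; the methods name another release, and also RSEM). They deposited raw counts per gene, without normalization, in one table with a column for each of the 6 libraries, and the table also gives gene length in bases and coordinates. Even values made up 63.4% to 65.7% of the counts from 1 to 10. Whether both mates of a pair were counted was not tested.

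Log2 fold changes (libraries labelled cKO over WT), standard errors and p-values were computed from these counts with edgeR 4.0.16 in R 4.3.3 (filterByExpr, TMM, glmQLFit, glmQLFTest, genotype as the only term), with Benjamini-Hochberg adjustment over 17146 genes. To obtain CPM, counts were divided by library size times TMM factor and multiplied by 1000000. The standard error is the log2 fold change divided by the square root of the F statistic. The ratios of counts used a pseudocount of 0.5. The fit was tested on simulated data. Replicates differed beyond sampling noise (chi-square per gene 4.87 to 14.2), and each of the 6 libraries counted as 1 replicate. The biological coefficient of variation was 8.36%.

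The genes, lists and motifs were chosen with earlier results of these data known. Named were *Gsdmd*, the 10 genes, the called genes of each list (values for the 4 with the largest log2 fold change in size), the 3 most abundant uncalled genes of a list, the 5 genes nearest to *Card9*, and neighbours. Genes named beyond this were chosen after their values were seen. A few genes of the lists are not reported here. The alternatives were DESeq2 1.42.0, limma-voom (limma 3.58.1), other normalizations, filters and limits, halved counts, replicate number as a block, and each library left out in turn. Ratios to macrophage markers, and these without *Lyz2*, were chosen after seeing the data. Counting error, floors and p-values cover these libraries only.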

Additional observations from a re-analysis of the deposited data

How the results depend on the processing

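The log2 fold changes of the 10 genes and *Gsdmd* were recomputed under 14 alternatives, and all 154 values kept their direction and their side of the threshold. *Card9* ranged from 2.91 to 3.13, *Clec4d* from 2.66 to 2.75, *Clec7a* from 1.59 to 1.78 and *Bcl10*, the smallest, from -0.26 to -0.21 with an adjusted p of at most 0.0134. In each of these 14 alternatives 7 of the 10 genes were called higher and 0 lower. With no limit on the fold change, 3445 genes were called higher and 3285 lower over the whole table, and of the 10 genes 9 were called higher and 1, *Bcl10*, lower. With at least 10 counts required in every library, 522 genes were called lower in place of 796, and of the other lectin receptors 4 were called higher in place of 8 and 1 lower in place of 2, and of the genes from CARD9 to NF-κB and MAPK 0 were called lower in place of 1 (*Rasgrf1*); 15134 genes were then tested. The cytokines and other targets called lower, 3 as reported, numbered 2 to 4 over the alternatives. The *Card9* ratios kept their direction in all 63 recomputed values. Replicate number as a block gave 1087 genes called higher and 772 lower and changed no call among the 10 genes. Same-numbered libraries of the 2 genotypes did not deviate together (correlations -0.01, 0.00 and -0.01). With so few libraries this cannot exclude that the numbers mark a shared preparation, and the labels do not say what the numbers mean. *Card9* rests on 39 to 69 counts per WT library. The genotype, sex-linked transcripts and macrophage markers all differ between the groups, and their parts cannot be told apart with these libraries.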
